A study of Alligator mississippiensis with 17 samples.

Results

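Frizzled proteins are the cell surface receptors for WNT ligands, and the 10 Frizzled genes of vertebrates, FZD1 to FZD10, are followed here through the tooth cycle of the American alligator. They were chosen by name: all 10 have a row among the 20703 genes of the deposited table. A Frizzled receptor binds WNT through a cysteine-rich domain outside the cell, and with the co-receptors LRP5 or LRP6 it recruits Dishevelled and stabilises beta-catenin. Other Frizzled complexes, with partners such as ROR2, RYK or PTK7, act on planar cell polarity and cell movement. In mouse teeth WNT signalling in epithelium and mesenchyme is needed for the tooth bud to form and grow.

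The study sampled laboratory-raised, untreated alligators 1 year old, kept at 30 degrees. Dental lamina, the epithelial strand from which each replacement tooth buds, was dissected at the pre-initiation stage (PIS, 5 libraries), the initiation stage (IS, 3 libraries) and the early growth stage (EG, 4 libraries), and a further 5 libraries came from replacement teeth (RT). The 4 groups carry no genetic change and no treatment, and the titles set them apart only by tissue and stage. The labels do not say whether replicates were separate animals, or whether animals were pooled, so the p-values reflect the scatter among the libraries, which may be technical. Values are RPKM, reads scaled to gene length and sequencing depth, and can therefore be compared between genes. A library held between 9667270 and 37747400 alignments.

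The lamina libraries expressed epithelial markers together with those of other tissues. Of 14 epithelial markers, 9 had a row, and none of the 9 was at 0 in any library. Their summed level was 95.4 to 650 RPKM in PIS, 734 to 902 in IS, 810 to 1092 in EG and 119 to 684 in RT. PIS replicate 5 stood apart: it held 0.659 RPKM of CDH1 (E-cadherin) beside 10.7 to 23.6 in the other PIS libraries, and 16.2 RPKM of EPCAM beside 55.9 to 84.1. Among the replacement teeth, replicates 3 and 5 had the most COL1A1, the type I collagen chain of mesenchyme, at 21057 and 27680 RPKM. They also had the least EPCAM, 18.1 and 25.4 RPKM, but the epithelial markers did not all place them alike. The epithelial sum was 451, 684, 119, 424 and 492 RPKM in RT replicates 1 to 5, so replicate 3 was lowest and replicate 5 second to replicate 2. KRT14, a keratin of basal epithelium, was at 299 RPKM in replicate 5 and at 24.7 to 47.8 RPKM in the other RT libraries. In bulk tissue, fewer cells of a type and less RNA per cell cannot be told apart.

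FZD8, FZD1 and FZD2 were the most highly expressed Frizzled genes of the lamina at each stage. Together they made up 74.8% to 84.6% of the summed Frizzled RPKM in PIS libraries, 74.8% to 77.8% in IS, 71.6% to 77.1% in EG and 70.5% to 78.4% in RT. FZD6 ranked next at each lamina stage, and FZD10 was lowest in every group. FZD3, FZD4, FZD5, FZD7 and FZD9 had group means between 0.775 and 5.95 RPKM. In replacement teeth FZD1 ranked first, FZD2 second, with FZD6 and then FZD8 after them.

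**Figure D1:**
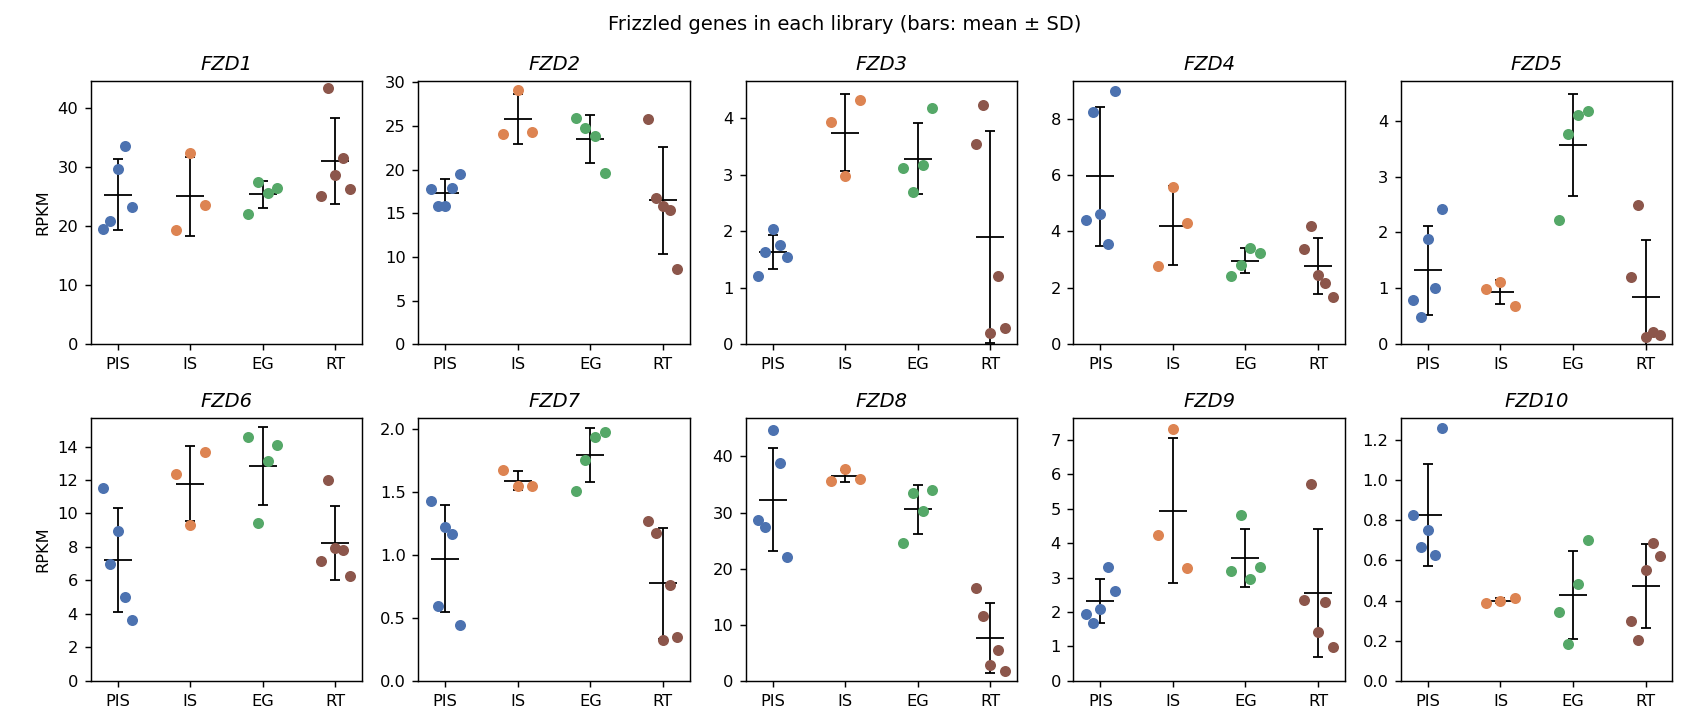
RPKM of each Frizzled gene (linear axes from 0, a scale of its own for each gene) in the 17 libraries, by group. Points are libraries in order of replicate number, and black bars give the mean ± SD; the FZD8 points of RT lie between 1.81 and 16.6 RPKM, below the lowest lamina library at 22.1 RPKM.

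Frizzled makeup, which does not depend on how libraries are scaled, differed between replacement teeth and lamina. FZD8 took 24.6% to 40.1% of the summed Frizzled RPKM in the 12 lamina libraries and 3.84% to 19.1% in the 5 RT libraries. FZD1 took 18.3% to 31.5% in lamina and 29.0% to 55.8% in RT, where replicate 1 alone lay within the lamina range. Shares are parts of a sum, so a smaller FZD8 share by itself makes the shares of the other members larger. In RPKM as deposited, the FZD1 range of RT overlapped with that of each lamina stage. The ratio of FZD8 to FZD1 was 1.28 ± 0.231 (SD, n = 5) in PIS, 1.52 ± 0.342 (n = 3) in IS, 1.20 ± 0.0749 (n = 4) in EG and 0.254 ± 0.239 (n = 5) in RT. The 5 RT ratios, 0.660, 0.269, 0.101, 0.174 and 0.0687 in replicates 1 to 5, all lay below the lowest lamina ratio, 0.953 in PIS replicate 5. Unlike the shares, the summed Frizzled level depends on scaling. As deposited it was 95.2 ± 12.9 RPKM in PIS, 115 ± 11.3 in IS, 108 ± 5.47 in EG and 72.6 ± 21.6 in RT. After median-ratio scaling it ran from 89.2 to 122 RPKM in PIS and from 89.5 to 117 in IS. Scaled EG libraries reached at most 96.8 RPKM, and scaled RT libraries ran from 61.7 to 102. The higher sums of IS and EG over PIS were thus not kept after scaling.

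**Figure D2:**
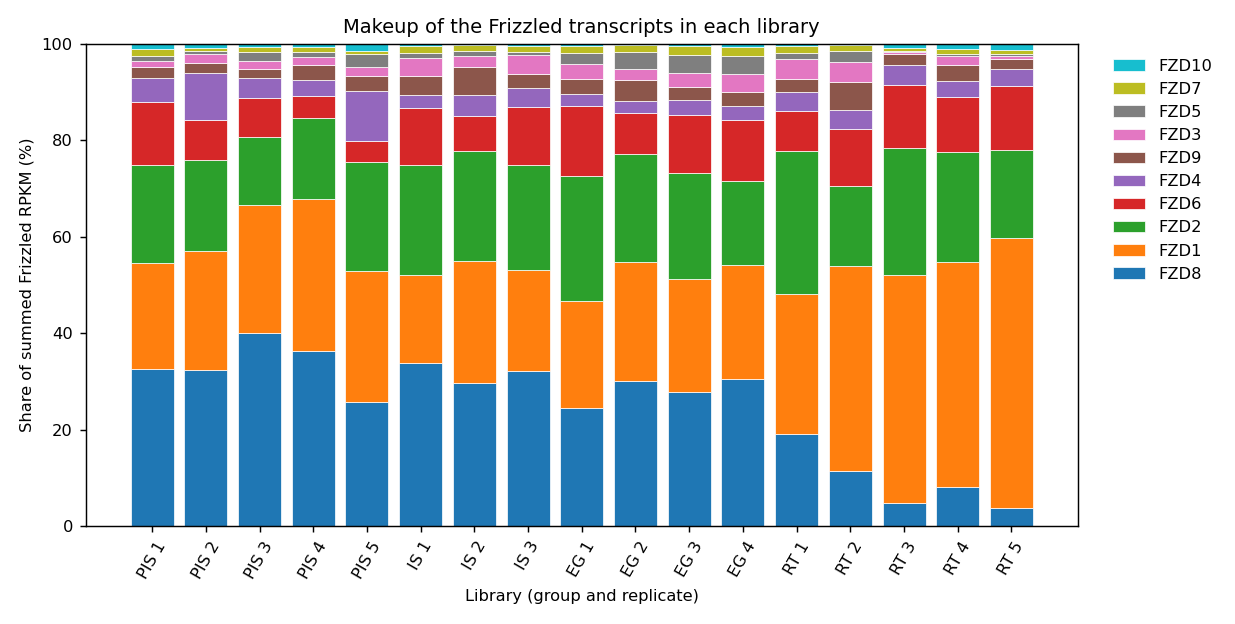
Share of each Frizzled gene in the summed RPKM of the 10 genes (vertical axis, percent), one stacked bar per library. The lowest, blue segment is FZD8 and the orange one above it FZD1; the FZD8 segment is 24.6% to 40.1% high in lamina libraries and 3.84% to 19.1% in replacement teeth.

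Differences between groups were tested on log2(RPKM + 0.5) with limma across all genes, and a gene was called at an adjusted p under 0.05. Of the 10 members, 9 passed the filter of at least 1 RPKM in at least 3 libraries; FZD10 did not. The median gene itself moved between groups, by 0.28 on the log2 scale from PIS to IS, by 0.34 from PIS to EG and by -0.37 from EG to RT. Calls are therefore given as deposited and after median-ratio scaling, which brings these 3 shifts to 0.0073, 0.023 and -0.015. The lamina comparisons share libraries with each other and with the RT comparisons, so their calls are not independent.

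At initiation, 3 of the 9 tested members were higher than in PIS (FZD2, FZD3 and FZD9) and 0 were lower, where 22.7% of all 12684 tested genes were called higher and 2.25% lower. After scaling 1 of the 9 was called higher (FZD3) and 0 lower, beside 6.19% and 5.55% of all genes. From IS to EG, 1 of 9 was higher (FZD5) and 0 were lower, beside 1.64% and 0.512% of all genes. After scaling limma called 0 of 9, beside 1.38% of all genes higher and 0.52% lower, and 1 of 9, FZD5, had an unadjusted p under 0.05. From PIS to EG, 5 of 9 were higher (FZD2, FZD3, FZD5, FZD6 and FZD7) and 1 lower (FZD4), beside 42.9% higher and 7.58% lower among all genes. After scaling 2 were higher (FZD3 and FZD5) and 1 lower (FZD4), beside 16.7% and 15.4%.

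Replacement teeth had 0 of 9 tested members higher and 4 lower than EG (FZD2, FZD5, FZD7 and FZD8), beside 4.89% and 39% of all 12904 tested genes. After scaling FZD1 was called higher and FZD5 and FZD8 lower, beside 9.28% and 6.35% of all genes. Against IS, 4 were lower (FZD2, FZD7, FZD8 and FZD9), beside 30.7% of all genes, and 0 were higher, beside 7.32%. After scaling 1 was lower (FZD8), beside 12%, and 1 higher (FZD1), beside 14.4%. Against PIS, 2 were lower (FZD4 and FZD8), beside 21.2% of all genes, and 0 were higher, beside 20.3%. The same 2 were lower after scaling and 0 were higher, beside 21.2% and 24%. Set beside these shares, the number of members called lower in RT as deposited is near that of the table as a whole. FZD8 was the one member called in all 3 RT comparisons both as deposited and after scaling.

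Ranges of the libraries did not overlap as deposited for 3 of 9 members between IS and PIS (FZD2, FZD3 and FZD7), beside 27.1% of all genes, for 2 between EG and IS (FZD5 and FZD8), beside 23%, and for 4 between EG and PIS (FZD2, FZD3, FZD4 and FZD7), beside 39.7%. They did not overlap for 2 between RT and EG (FZD7 and FZD8), beside 33.5%, for the same 2 between RT and IS, beside 36.6%, and for 1 between RT and PIS (FZD8), beside 22.2%.

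**Figure D3:**
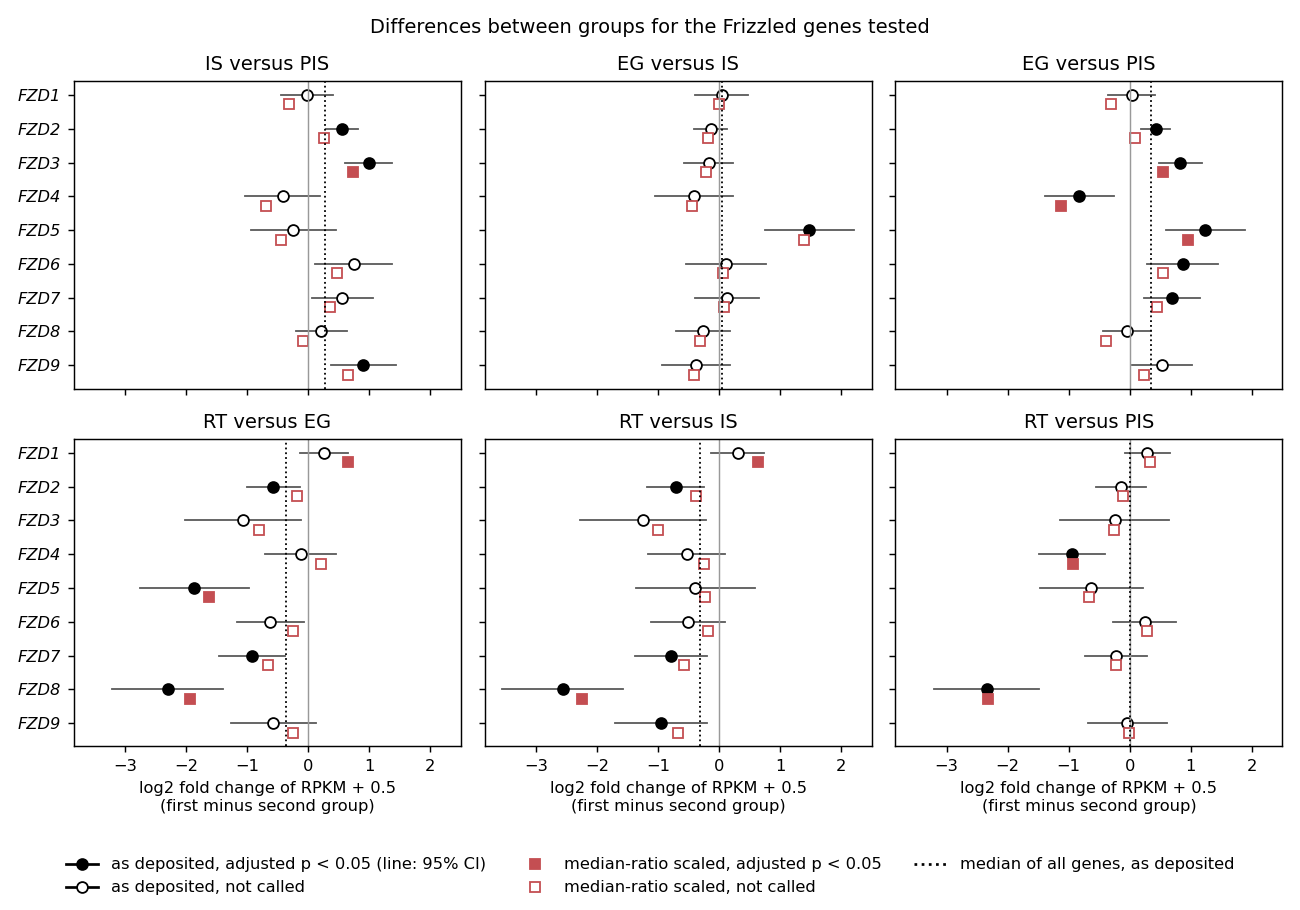
Log2 fold change (horizontal axis, first minus second group) of the 9 tested Frizzled genes in the 6 comparisons. Circles with 95% confidence intervals are values as deposited, squares are values after median-ratio scaling, filled symbols passed an adjusted p under 0.05, and the dotted line is the median of all genes. In the RT panels the FZD8 circles lie between -2.56 and -2.30 and its squares between -2.32 and -1.93.

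FZD8 and FZD5 are closely related receptors that signal through beta-catenin. FZD8 was at 28.6, 27.4, 44.7, 38.8 and 22.1 RPKM in PIS replicates 1 to 5. It was at 35.7, 37.7 and 36.1 RPKM in IS and at 24.6, 33.4, 30.3 and 34.1 RPKM in EG. No difference of FZD8 between lamina stages passed the test, and the 95% interval of EG minus PIS was -0.43 to 0.34 on the log2 scale. In replacement teeth FZD8 was at 16.6, 11.6, 2.88, 5.48 and 1.81 RPKM, so that RT overlapped with no lamina library. FZD8 fell by 2.30 ± 0.43 (SE) on the log2 scale from EG to RT (adjusted p = 0.00161). It was lower in RT than in IS by a log2 change of -2.56 ± 0.47 (adjusted p = 0.000747) and than in PIS by -2.34 ± 0.41 (adjusted p = 0.000244). After scaling the 3 changes were -1.93, -2.24 and -2.32 (adjusted p = 0.00425, 0.00139 and 0.000137).

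The replacement teeth differed among themselves in FZD8 and also in mesenchymal and epithelial markers. In replicates 1 to 5, COL1A1 stood at 3675, 6355, 21057, 14279 and 27680 RPKM, so the order of the 5 libraries by FZD8 was the reverse of their order by COL1A1. Of 12 mesenchymal markers 11 had a row, and their summed level was 7037 to 44265 RPKM in RT, 6314 to 9602 in PIS, 4738 to 12000 in IS and 3842 to 6103 in EG. RT replicate 1, with mesenchymal markers at 7037 RPKM, within the lamina range, held 16.6 RPKM of FZD8, below every lamina library. Its summed endothelial markers, 27.9 RPKM, also lay below every lamina library, the lowest being EG replicate 1 at 40.8 RPKM. Its odontoblast and mineralised tissue markers, 7 of 8 with a row, summed to 233 RPKM. That lay above every lamina library, the highest being IS replicate 2 at 204 RPKM. In RT replicates 1 to 5 this sum was 233, 396, 1053, 733 and 3667 RPKM, also the reverse of their order by FZD8. PIS replicate 5, which had the lowest epithelial marker sum of the 17 libraries, 95.4 RPKM, held 22.1 RPKM of FZD8. That was the least FZD8 of any lamina library, and above every RT library. RT replicate 1 had an epithelial sum of 451 RPKM, below every lamina library but PIS replicate 5. Without RT replicates 3 and 5, FZD8 was lower in RT by -1.52 against EG (adjusted p = 0.00605), -1.78 against IS (0.00117) and -1.57 against PIS (0.000652). Single libraries and marker sums cannot separate tissue makeup from a change within cells. The part of tissue makeup in the fall of FZD8 was not tested.

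**Figure D4:**
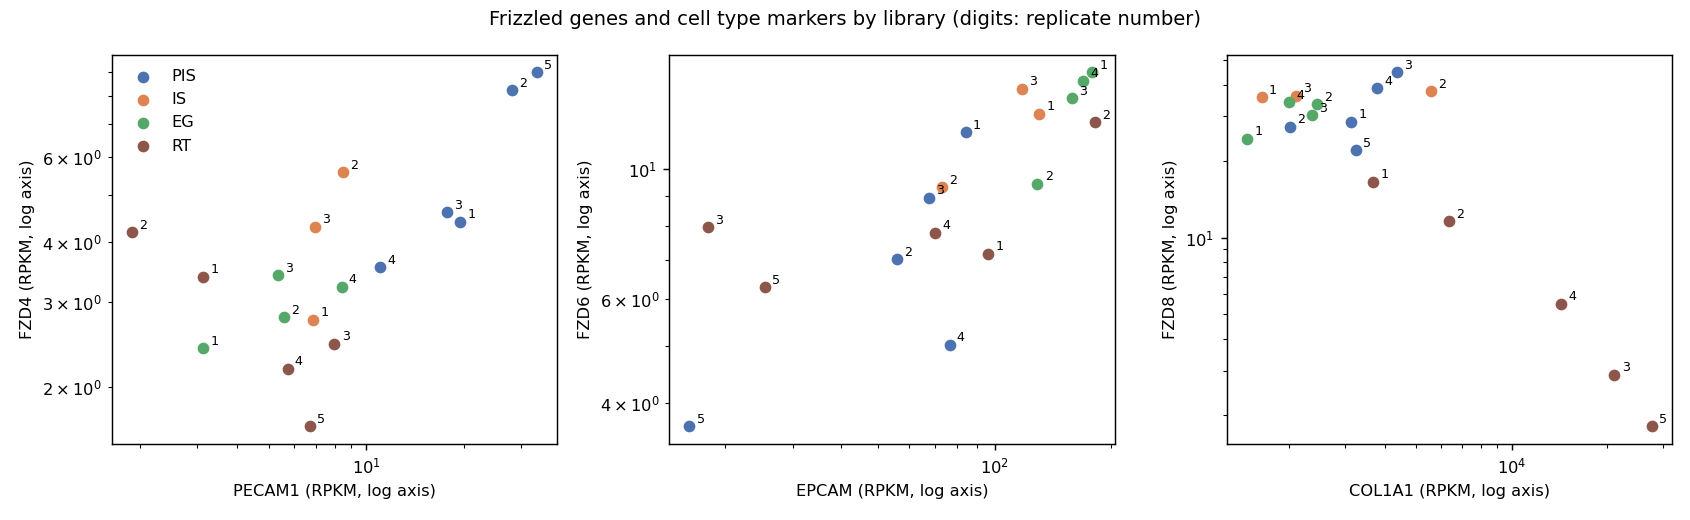
RPKM of 3 Frizzled genes (vertical axes) against that of a marker gene (horizontal axes) in the 17 libraries, on log axes; digits are replicate numbers and colours are groups. FZD4 is set against the endothelial gene PECAM1, FZD6 against the epithelial gene EPCAM and FZD8 against the mesenchymal gene COL1A1; the PIS libraries with the most PECAM1, replicates 2 and 5, have the most FZD4, at 8.24 and 8.97 RPKM.

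FZD5 was highest in early growth. It was at 0.800, 0.494, 1.87, 1.01 and 2.42 RPKM in PIS, at 0.994, 1.12 and 0.691 in IS and at 2.22, 3.75, 4.10 and 4.18 in EG. All EG libraries lay above all IS libraries, and EG replicate 1 lay below the highest PIS library. FZD5 rose from PIS to EG by 1.24 ± 0.30 (SE) on the log2 scale (adjusted p = 0.00475), and by 0.95 after scaling (adjusted p = 0.0382). It rose by 1.48 ± 0.34 from IS to EG (adjusted p = 0.0395), a call lost after scaling (1.40, adjusted p = 0.0791). That call was also lost without any 1 of the IS and EG libraries, with adjusted p up to 0.156. Ameloblast markers, of which 5 of 7 had a row and each of the 5 was at 0 in some library, had summed levels of 0.142 to 25.1 RPKM in PIS, 10.5 to 59.2 in IS, 288 to 2620 in EG and 81.3 to 5975 in RT. In EG replicates 1 to 4 the sum was 288, 347, 1554 and 2620 RPKM, the same order as that of FZD5. RT replicate 2 had the highest sum, 5975 RPKM, and the most FZD5 of RT, 2.49 RPKM. RT replicate 4 had a sum of 3469 RPKM, above every EG library, and 0.223 RPKM of FZD5, below every EG library. The part of ameloblasts in the FZD5 differences was not tested.

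In replacement teeth FZD5 was at 1.20, 2.49, 0.129, 0.223 and 0.163 RPKM. Replicates 1 and 2 were thus well above replicates 3 to 5, and replicate 2 reached the EG range. FZD5 was lower in RT than in EG by -1.87 ± 0.42 (adjusted p = 0.0044), and by -1.62 after scaling (adjusted p = 0.0196). Without RT replicates 3 and 5, the libraries with the most COL1A1, it was not called (-1.37, adjusted p = 0.0514). That smaller fit also called fewer of all genes, 1532 instead of 5659 for RT against EG. It called 2847 instead of 4909 for RT against IS, and 4624 instead of 5359 for RT against PIS. A call lost in it, here or for members below, is therefore no mark of that member. For FZD5, neither RT against PIS (-0.63, adjusted p = 0.220) nor RT against IS (-0.39, adjusted p = 0.516) passed the test.

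FZD1, FZD2 and FZD7 form a second group of related receptors; in mice Fzd1 and Fzd2 act together in closure of the palate, and Fzd7 in intestinal stem cells. FZD1 was at 19.5, 20.7, 29.6, 33.5 and 23.2 RPKM in PIS, at 19.3, 32.3 and 23.5 in IS and at 22.0, 27.4, 25.6 and 26.3 in EG. It was at 25.1, 43.2, 28.6, 31.5 and 26.3 RPKM in RT, and the ranges of all 4 groups overlapped as deposited. FZD1 varied least of the 10 genes, 2.25-fold between its lowest and highest library. No comparison of FZD1 passed the test as deposited; the 95% interval of EG minus PIS was -0.36 to 0.41. After scaling it was higher in RT than in EG by 0.65 (adjusted p = 0.0334) and than in IS by 0.64 (adjusted p = 0.0334), but not than in PIS (0.33, adjusted p = 0.15).

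FZD2 was at 17.7, 15.8, 15.8, 17.9 and 19.5 RPKM in PIS, at 24.0, 29.1 and 24.3 in IS and at 25.9, 24.8, 23.9 and 19.5 in EG. All IS and EG libraries lay above all PIS libraries as deposited, though EG replicate 4 and PIS replicate 5 both round to 19.5 RPKM. After scaling PIS overlapped with both groups. As deposited FZD2 rose from PIS to IS by 0.56 ± 0.12 (SE, adjusted p = 0.00738) and was 0.42 ± 0.11 higher in EG than in PIS (adjusted p = 0.00742). Both calls were lost after scaling (0.27, adjusted p = 0.198, and 0.08, adjusted p = 0.627). FZD2 in RT ranged from 8.66 RPKM in replicate 5 to 25.8 in replicate 1. It was lower than in EG by -0.57 (adjusted p = 0.0337), a call lost after scaling (-0.19, adjusted p = 0.498). Against IS the change was -0.71 (adjusted p = 0.0207), also lost after scaling (-0.37, adjusted p = 0.164). Without RT replicates 3 and 5 neither was called (-0.31, adjusted p = 0.190, and -0.44, adjusted p = 0.0790).

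FZD7 was low throughout: 0.448 to 1.43 RPKM in PIS, 1.55 to 1.68 in IS, 1.51 to 1.97 in EG and 0.324 to 1.27 in RT. In RPKM as deposited, PIS overlapped neither with IS nor with EG, and RT lay below both. After scaling PIS overlapped with both and RT with EG, while RT still lay below IS. As deposited FZD7 rose from PIS to EG by 0.69 ± 0.21 (SE, adjusted p = 0.017), and was lower in RT than in EG by -0.92 ± 0.26 (adjusted p = 0.0114) and than in IS by -0.79 ± 0.28 (adjusted p = 0.035). After scaling none of these 3 was called by limma (adjusted p = 0.118, 0.0695 and 0.114). Both RT calls were also lost without RT replicates 3 and 5 (-0.56, adjusted p = 0.118, and -0.43, adjusted p = 0.233). PIS minus IS missed the threshold as deposited as well (IS higher by 0.56, adjusted p = 0.0894).

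FZD3 and FZD6 are the receptors best known for planar cell polarity, in mice for axon guidance and hair orientation. FZD3 was at 1.21, 1.63, 2.03, 1.77 and 1.54 RPKM in PIS, at 3.94, 2.99 and 4.33 in IS and at 3.11, 2.70, 3.17 and 4.18 in EG. Every IS and EG library lay above every PIS library, as deposited and after scaling. FZD3 rose by 0.99 ± 0.18 (SE) from PIS to IS (adjusted p = 0.00339; 0.74 after scaling, adjusted p = 0.0199). It was 0.83 ± 0.16 higher in EG than in PIS (adjusted p = 0.00167; 0.54 after scaling, adjusted p = 0.0242). When the RT libraries also entered the fit, both calls were lost (adjusted p = 0.152 and 0.138).

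In RT, FZD3 was at 3.55, 4.24, 0.191, 1.21 and 0.294 RPKM. Replicates 1 and 2 lay within the range of IS and EG, and replicates 3 and 5 below every lamina library. The group mean of 1.90 ± 1.88 RPKM (SD, n = 5) therefore describes no single library, and RT minus EG did not pass the test (-1.07, 95% interval -2.02 to -0.12, adjusted p = 0.0614). Summed markers of dividing cells, 8 of 8 of them measured, were 157 and 112 RPKM in RT replicates 1 and 2 and 69.6 to 89.3 in replicates 3 to 5. They were 69.7 to 97.7 RPKM in PIS, 134 to 210 in IS and 138 to 199 in EG. The part of dividing cells in the FZD3 values was not tested.

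FZD6 was at 11.5, 7.01, 8.93, 5.02 and 3.65 RPKM in PIS, at 12.4, 9.29 and 13.7 in IS, at 14.6, 9.42, 13.2 and 14.1 in EG and at 7.16, 11.97, 7.95, 7.79 and 6.28 in RT. PIS replicate 5, lowest of the 17 libraries in FZD6, was also lowest in EPCAM and in the epithelial marker sum. Other libraries did not follow that order: PIS replicate 4, next lowest in FZD6, had an epithelial sum of 569 RPKM. RT replicate 3, with a sum of 119 RPKM, held more FZD6 than RT replicate 1, with a sum of 451 RPKM. The part of epithelium in the FZD6 differences was not tested. As deposited FZD6 rose from PIS to EG by 0.87 ± 0.27 (SE, adjusted p = 0.0175), and it was not called after scaling (0.54, adjusted p = 0.114). The call was also lost without EG replicate 1 (adjusted p = 0.0535). IS minus PIS (0.75, adjusted p = 0.0744) and RT minus EG (-0.62, adjusted p = 0.0614) were not called. In the current alligator annotation of RefSeq a non-coding RNA gene overlaps FZD6, the one member of the 10 with an overlapping gene, and without strand information reads of the 2 cannot be told apart.

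FZD4, known in mice and people as the receptor for Norrin in growth of retinal vessels, was highest in PIS. It was at 4.40, 8.24, 4.61, 3.54 and 8.97 RPKM in PIS, at 2.76, 5.57 and 4.29 in IS, at 2.41, 2.79, 3.41 and 3.22 in EG and at 3.38, 4.19, 2.46, 2.18 and 1.66 in RT. Every EG library lay below every PIS library, while IS overlapped with both. FZD4 fell by 0.83 ± 0.26 (SE) from PIS to EG on the log2 scale (adjusted p = 0.0198; -1.13 after scaling, adjusted p = 0.0102). It was lower in RT than in PIS by -0.95 ± 0.26 (adjusted p = 0.00747; -0.92 after scaling, adjusted p = 0.00846). The first call was lost without EG replicate 1 (adjusted p = 0.0616) and the second without RT replicates 3 and 5 together (-0.74, adjusted p = 0.0596).

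Summed endothelial, mural, nerve and mesenchymal markers all had lower group means from PIS to IS to EG, as FZD4 did. The mesenchymal sum had means of 8156 RPKM in PIS, 7358 in IS and 5304 in EG. In RT, where the FZD4 mean was lowest as deposited, its mean was 24010 RPKM. All 12 endothelial markers had a row, and their summed level was 90.0 to 204 RPKM in PIS, 71.1 to 90.4 in IS, 40.8 to 79.1 in EG and 14.7 to 56.4 in RT. PECAM1, a junction protein of vessel walls, was at 19.5, 28.1, 17.7, 11.0 and 33.7 RPKM in PIS replicates 1 to 5, with the highest values in the replicates highest in FZD4, 2 and 5, and the lowest in the replicate lowest in FZD4. In IS replicate 2 was highest in both genes, with 8.49 RPKM of PECAM1. RT did not follow the same order: replicate 2 had the least PECAM1 of all libraries, 1.89 RPKM, and the most FZD4 of RT. Mural and smooth muscle markers, 7 of 8 with a row, had summed levels of 178 to 401 RPKM in PIS, 112 to 166 in IS, 80.6 to 118 in EG and 44.5 to 90.3 in RT. They ordered the PIS libraries and the IS libraries as FZD4 did, but not those of EG or RT. RT replicate 2, with the most FZD4 of RT, had the lowest mural sum, 44.5 RPKM. Nerve and Schwann cell markers, 7 of 7 with a row, summed to 37.2 to 300.4 RPKM in PIS, 27.7 to 98.3 in IS, 19.9 to 50.7 in EG and 9.72 to 16.8 in RT. They did not order the PIS libraries as FZD4 did: replicate 1 had the lowest sum, 37.2 RPKM, and replicate 4, lowest in FZD4, had 139. The part of these cell types in the FZD4 differences was not tested. TSPAN12, which encodes the tetraspanin partner of FZD4 in Norrin signalling, fell from 4.93 ± 1.34 RPKM in PIS to 2.30 ± 0.432 in EG (-0.94, adjusted p = 0.00176; -1.23 after scaling, adjusted p = 0.00132), and NDP, which encodes Norrin, was not called (0.49, adjusted p = 0.160).

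FZD9, whose loss in mice impairs bone formation, was at 1.69 to 3.31 RPKM in PIS, at 4.24, 7.32 and 3.29 in IS, at 2.95 to 4.81 in EG and at 2.34, 5.73, 1.43, 2.31 and 0.988 in RT. It rose from PIS to IS by 0.91 ± 0.25 (SE, adjusted p = 0.0215), though IS replicate 3 lay within the PIS range. The call was lost after scaling (0.65, adjusted p = 0.126) and without IS replicate 1 or 2 (adjusted p = 0.0623 and 0.0859). FZD9 was lower in RT than in IS by -0.95 (adjusted p = 0.0459), a call lost after scaling (-0.66, adjusted p = 0.164), in 12 of the 17 fits that left out 1 library, and without RT replicates 3 and 5 (-0.50, adjusted p = 0.286).

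FZD10 reached 1 RPKM in 1 library, 1.26 RPKM in PIS replicate 5. It was at 0.825, 0.665, 0.750 and 0.625 RPKM in the other PIS libraries and at 0.386, 0.399 and 0.410 in IS, which lay below all PIS libraries. In EG it was at 0.185 to 0.703 RPKM and in RT at 0.205 to 0.688 RPKM, both overlapping with PIS as deposited. With no filter, where 20262 genes were tested in the lamina, FZD10 was lower in EG than in PIS by -0.52 ± 0.17 (SE, adjusted p = 0.038; -0.70 after scaling, adjusted p = 0.0195), and IS minus PIS was -0.54 (adjusted p = 0.0779; -0.69 after scaling, adjusted p = 0.059).

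By mean RPKM, the 4 groups fell into different orders for different members. IS and EG were the 2 highest groups for FZD2, FZD3, FZD6, FZD7 and FZD9, and neighbouring IS and EG means differed by less than the test could call for each of these 5. PIS was highest for FZD4 and FZD10, EG for FZD5, IS for FZD8 and RT for FZD1. FZD8 in IS exceeded PIS by 0.22 on the log2 scale (adjusted p = 0.417), and after scaling PIS was the higher. As profiles over the 17 libraries, log2 values as deposited centred on each gene's mean, FZD2 and FZD7 were nearest among the 36 pairs of tested members. Their root mean square difference was 0.36, little below that of the median tested gene with a symbol, 0.43 from FZD2 and 0.48 from FZD7. FZD1 and FZD8 were farthest apart, at 1.35.

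Genes whose centred profile lay nearest to a called member were picked from 10852 tested genes with a symbol, as a description over the 17 libraries. STRBP (root mean square difference 0.34), SORL1 (0.35) and BNC2 (0.41) were nearest to FZD8, whose own SD was 1.29. MN1 (0.50), NPNT (0.52) and KIAA1217 (0.54) were nearest to FZD5, with an SD of 0.95, and KIAA1217 (0.31), HMGB2 (0.33) and ANK3 (0.35) to FZD3, with an SD of 0.85. STOM (0.28), ARHGAP6 (0.30) and ABCG2 (0.31) were nearest to FZD4, with an SD of 0.57. HAUS7 was nearest to FZD2 (0.12), APPL1 to FZD6 (0.17), GOT1 to FZD7 (0.14) and NUDT22 to FZD9 (0.33).

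Among genes of Frizzled co-receptors and partners, 9 of 12 were tested. From PIS to EG, 4 of the 9 were higher and 2 lower, beside 42.9% and 7.58% of all genes, and after scaling 1 and 2, beside 16.7% and 15.4%; the share called higher as deposited was thus near that of all genes. ROR2, a receptor for WNT5A, was the member with the smallest p, going from 4.11 ± 0.356 to 6.55 ± 0.22 RPKM (0.61, adjusted p = 0.000655; 0.30 after scaling, adjusted p = 0.028). The co-receptor genes LRP5 (0.27, adjusted p = 0.417) and LRP6 (-0.21, adjusted p = 0.377) were not called between PIS and EG. From EG to RT, 0 of 9 were higher and 5 lower as deposited, beside 4.89% and 39% of all genes. LRP5 (4.81 ± 0.601 to 2.55 ± 0.357 RPKM, adjusted p = 0.0186) and LRP6 (4.44 ± 0.686 to 2.86 ± 0.283 RPKM, adjusted p = 0.0202) were among the 5. After scaling 1 was higher (TSPAN12, 0.99, adjusted p = 0.0497) and 0 lower, beside 9.28% and 6.35%, and LRP5 and LRP6 were not called (adjusted p = 0.214 and 0.493). LRP6 was lower in RT than in PIS as deposited (-0.76, adjusted p = 0.00155) and after scaling (-0.72, adjusted p = 0.00351). The median log2 change of the list from EG to RT was -0.49, beside -0.37 for all genes.

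Of 19 WNT ligand genes, 12 were tested in lamina, and from PIS to EG 7 were higher and 1 lower, beside 42.9% and 7.58% of all genes (5 and 1 after scaling, beside 16.7% and 15.4%). The median log2 change was 0.87, beside 0.34 for all genes. WNT5A, a ligand of FZD and ROR2 complexes, rose from 16.5 ± 1.82 to 42.6 ± 14.7 RPKM (1.29, adjusted p = 0.000341; 0.95 after scaling, adjusted p = 0.0025). Of 9 genes that control Frizzled turnover or encode R-spondins and their receptors, 4 were higher and 1 lower in EG than in PIS, beside 42.9% and 7.58% of all genes (3 and 1 after scaling, beside 16.7% and 15.4%). As deposited, the 4 called higher were thus near the share of all genes. RSPO2, which encodes an R-spondin that keeps Frizzled at the membrane, had the smallest p of the 4 and went from 0.675 ± 0.471 to 12.2 ± 7.43 RPKM (3.35, adjusted p = 0.000183; 3.06 after scaling, adjusted p = 0.000547). Of 9 tested genes of secreted Frizzled-related proteins and other extracellular WNT inhibitors, 1 was higher and 5 lower in EG than in PIS, beside 42.9% and 7.58% of all genes (1 and 6 after scaling, beside 16.7% and 15.4%), with a median of -0.66 beside 0.34. FRZB, a decoy with a Frizzled-like domain, fell from 10.4 ± 2.67 to 2.74 ± 0.735 RPKM (-1.74, adjusted p = 0.000103, and -2.04 after scaling, adjusted p = 0.000157). Mean marker sums also went from PIS to EG from 290 to 99.6 RPKM for mural cells and from 149 to 57.4 for endothelium. They went from 8156 to 5304 RPKM for mesenchyme and from 473 to 982 for epithelium. The part of tissue makeup in the counts of these lists was not tested.

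Planar cell polarity genes were higher in EG than in PIS for 8 of 9 tested and lower for 0, beside 42.9% and 7.58% of all genes (5 and 0 after scaling, beside 16.7% and 15.4%), with a median of 0.83 beside 0.34. Over the same comparison the epithelial marker sum went from a mean of 473 to 982 RPKM and that of dividing cells from 81.3 to 164, and their part in these counts was not tested. INTU had the smallest adjusted p of the list from PIS to EG, going from 4.56 ± 2.33 to 24.3 ± 7.61 RPKM (2.37, adjusted p = 0.000168). After scaling its change was 2.04 (adjusted p = 0.0005). VANGL2, a core polarity gene, rose from PIS to IS from 2.67 ± 0.774 to 6.27 ± 0.229 RPKM (1.13, adjusted p = 0.0024; 0.87 after scaling, adjusted p = 0.00959). Of 10 genes for cytoplasmic steps of WNT signalling, 5 were higher and 0 lower in EG than in PIS, beside 42.9% and 7.58% of all genes (2 and 1 after scaling, beside 16.7% and 15.4%), with a median of 0.45 beside 0.34. The 5 were APC, GSK3B, CSNK1A1, BTRC and DAAM1, and their count gives no direction of signalling. The numbers called higher were near the shares of all genes. Of 10 beta-catenin target and feedback genes, 6 were higher and 0 lower, beside 42.9% and 7.58% of all genes (5 and 0 after scaling, beside 16.7% and 15.4%), with a median of 1.03 beside 0.34. The lists are not independent, since they share genes. RNF43, among the 6, also counts in the turnover list, and DKK1, also among the 6, is the 1 inhibitor gene called higher. TCF7, a transcription factor gene of the pathway, rose from 6.48 ± 2.92 to 30.5 ± 0.994 RPKM (2.26, adjusted p = 0.000118; 1.92 after scaling, adjusted p = 0.00058). In the same list AXIN2 (0.087, adjusted p = 0.731) and LEF1 (0.34, adjusted p = 0.424) were not called between PIS and EG. Nor were ZNRF3 (0.90, adjusted p = 0.0728) and LGR5 (0.45, adjusted p = 0.176), and none of these genes was called after scaling. From EG to RT, 1 of these 10 target genes was higher and 7 were lower, beside 4.89% and 39% of all genes, and after scaling 1 was higher and 1 lower, beside 9.28% and 6.35%.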

How the data were processed

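The authors deposited one RPKM value per gene for 17 libraries. Per the labels' protocols, dissected tissue went into Trizol and an Illumina TruSeq RNA kit was used. The submitters' processing notes name TopHat2 (2.1.0) and Partek (3) without saying what each did. Genome build, annotation and strand handling are not stated in the material at hand, so no coordinates or sequences are printed; gene positions in RefSeq's annotation (assembly rAllMis1), where all 10 members matched, served only to look for overlapping genes. Groups come from sample titles. A stage field reads pre-initiation stage for all 17 samples, which is at odds with the titles of the IS, EG and RT libraries.

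Tests ran on log2(RPKM + 0.5), a scale that understates changes of low genes, in limma (3.58.1, under R 4.3.3) with group means, contrasts and trended empirical Bayes, two-sided, with Benjamini-Hochberg adjustment over all genes. Genes needed 1 RPKM or more in 3 or more libraries of a fit, which held the 12 lamina libraries, or all 17 for RT comparisons. Median-ratio factors ran from 0.764 to 1.23. Fits were tested on simulated data. Read counts behind single values were not used, so no counting interval is given, and low genes such as FZD7 and FZD10 are the least precise.

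Members and lists were chosen with earlier results of these data known. The text names all members, the genes nearest in profile to each called member, co-receptor and partner genes, and the called gene with the smallest adjusted p of a list. It also names target and feedback genes not called between PIS and EG, cytoplasmic genes called higher there, and genes that lists share. Alternatives were pseudocounts of 0.1 and 1, no filter, a mean of 5 RPKM or more, median-ratio scaling, fits on other sets of libraries, array weights, blocking by replicate number, and leaving out single libraries. Leaving out RT replicates 3 and 5 together was chosen after seeing the data.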

Additional observations from a re-analysis of the deposited data

Results flagged for a closer look

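FZD9 in RT replicate 2, at 5.73 RPKM, stood far from the other replacement teeth: the next library was at 2.34 RPKM and the lowest at 0.988 RPKM, so the gap to the next was 0.715 of the group's range, above Dixon's critical value of 0.71 for 5 samples. It was the 1 such value among 30 gene and group combinations checked, where chance gives about 1 in 20.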

How the results depend on the processing

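FZD8 was called lower in RT in all 3 comparisons under each of the 26 alternatives run for each, with log2 changes from -2.66 to -1.52 against EG, -2.92 to -1.78 against IS and -2.70 to -1.57 against PIS. FZD5 was called higher in EG than in PIS under all 20 alternatives (0.95 to 1.55). Counts of members called moved more. Between EG and IS 0 were called by limma with a pseudocount of 0.1, no filter, a mean of at least 5 RPKM, median-ratio scaling or all 17 libraries, and 2 with array weights. Between RT and IS, 2 were called with no filter, the 5 RPKM filter or scaling, 1 with the 2 groups alone, 1 without RT replicates 3 and 5, and 8 with array weights. Between IS and PIS, 1 was called with the 5 RPKM filter or scaling and 0 with all 17 libraries; between EG and PIS, 2 with that filter and 3 with scaling. Between RT and EG, 2 were called with that filter, 7 with array weights and 1 without RT replicates 3 and 5; between RT and PIS, 1 with that filter and 1 without those replicates. The 5 RPKM filter tests fewer genes. Of the members it kept only FZD1, FZD2, FZD6 and FZD8, and none of them gained or lost a call under it. The cause of the other moves was not tested. Over all genes, that filter gave 1992 calls for IS against PIS, 119 for EG against IS, 3982 for EG against PIS, 3767 for RT against EG, 3018 for RT against IS and 3309 for RT against PIS. How many genes passed it is not given here, so these are counts and not shares. The same holds for fits on fewer libraries. Scaling, array weights and a pseudocount of 0.1 kept the genes of the main fits, 12684 in lamina and 12904 for RT comparisons. Scaling gave 1489 for IS against PIS, 241 for EG against IS, 4078 for EG against PIS, 2017 for RT against EG and 3400 for RT against IS. No filter gave 351 of 20262 genes for EG against IS and 5124 of 20703 for RT against IS. A pseudocount of 0.1 gave 184 for EG against IS. The 2 groups alone gave 1494 for IS against PIS, 940 for EG against IS and 3763 for RT against IS. All 17 libraries gave 2646 for IS against PIS and 107 for EG against IS. Array weights gave 4850 for IS against PIS, 4015 for EG against IS, 8799 for RT against EG and 8151 for RT against IS. Without RT replicates 3 and 5, RT against EG gave 1532, RT against IS 2847 and RT against PIS 4624. The main fits gave 5659, 4909 and 5359 for these comparisons. Leaving out single libraries gave 2 to 5 members for IS against PIS (lowest without IS replicate 1), 0 to 1 for EG against IS, 4 to 7 for EG against PIS (lowest without EG replicate 1), 3 to 7 for RT against EG (highest without RT replicate 2), 1 to 5 for RT against IS (lowest without IS replicate 2) and 2 to 3 for RT against PIS (highest without RT replicate 2). Over all genes it gave 978 to 3343, 69 to 439, 4756 to 6542, 3872 to 6333, 3176 to 5598 and 4733 to 5578 calls in the same order of comparisons, with 978 without IS replicate 1 and 69 without IS replicate 2. The group with the highest mean stayed as reported for 9 to 10 of the 10 members. Directions that turned belonged to differences not called. With scaling, FZD8 IS minus PIS became -0.078, FZD1 EG minus IS -0.0029, FZD1 EG minus PIS -0.31 and FZD4 RT minus EG 0.20. Without RT replicates 3 and 5, FZD4 RT minus EG became 0.089, FZD5 RT minus IS 0.12, and RT minus PIS became 0.12 for FZD2, 0.60 for FZD3, 0.13 for FZD7 and 0.41 for FZD9. Without single libraries, FZD1 ran from -0.21 to 0.15 for IS minus PIS, -0.12 to 0.24 for EG minus IS and -0.057 to 0.13 for EG minus PIS; FZD6 EG minus IS from -0.040 to 0.25; FZD8 EG minus PIS from -0.17 to 0.083; FZD4 RT minus EG from -0.27 to 0.013; and RT minus PIS from -0.33 to 0.055 for FZD2, -0.60 to 0.095 for FZD3 and -0.34 to 0.17 for FZD9. Groups share replicate numbers, and the labels do not say whether same-numbered samples share anything else. The correlation of same-numbered deviations from group means ran from -0.30 to 0.36 for IS and PIS and from -0.48 to 0.24 for RT and IS. For EG and IS it ran from 0.090 to 0.24, with a mean of 0.17 beside -0.056 for pairs of unlike number. In no comparison did every pair exceed 0.1. A shared animal or batch was not tested. With the replicate block, 1 member was called for RT against IS and 3 for RT against EG, beside 4081 and 4650 of all 12904 tested genes. Under the block FZD1 IS minus PIS became 0.036, FZD5 IS minus PIS 0.0022 and FZD1 EG minus IS -0.032. With no counts, depth limits low genes by an unknown amount.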
